A study of Mus musculus with 3 samples.

Results

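Mitotic granulosa cells (GCs), here GCs of the ovarian follicle that hold transcripts of cell division, are described in a single-cell RNA-seq table of mouse ovary. A cell was taken as one when *Inha*, which encodes the inhibin alpha subunit made by GCs, was at 2 or more on the deposited natural-log scale and at least 3 of 6 mitotic markers were above 0. The markers were *Top2a*, *Mki67*, *Ube2c*, *Birc5*, *Ccnb2* and *Cenpf*. The cell also had to hold the theca gene *Cyp17a1* and the stromal gene *Dcn* below 2, and the leukocyte gene *Ptprc* and the endothelial gene *Pecam1* at 0. Of 31776 cells in the table, 13761 passed the gate of these 5 non-cycle genes, and 2302 of them carried 3 or more markers. The 8114 gated cells with none of the 6 markers above 0 served as the comparison and are called non-cycling. That name means only that no marker was detected, and whether some of these cells were dividing was not tested. Another 3345 gated cells with 1 or 2 markers stood in between.

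The cells came from ovaries of Kunming mice collected 0, 1 and 6 h after an injection of hCG, the gonadotropin given in place of the luteinising hormone (LH) surge. In the study's methods the sequenced ovaries came from prepubertal mice injected with PMSG, which drives follicle growth. The labels name hCG and not PMSG, the methods name PMSG and not hCG, and no mutation, transgene or number of pooled ovaries is given. Each time point was 1 library. Cell barcodes in the table end in 1, 2 or 3, and nothing ties an ending to a time point, so the endings are called barcode sets 1, 2 and 3 throughout and no effect of hCG is read from them.

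The deposited values gave back whole unique molecular identifiers (UMIs, each marking 1 captured RNA molecule) in 100% of 80167176 entries within 0.01 UMI, so levels are given as UMIs per 10000 UMIs of all genes, summed over the cells of a group. The sets held 4250, 4342 and 5169 gated cells, of which 750, 567 and 985 were mitotic and 2443, 2734 and 2937 non-cycling. Mitotic and non-cycling cells were compared within each of the 3 sets, and no test was made, since the cells were chosen by their own transcripts. A difference between sets has no replicate. Every interval is exact at 95% and covers counting error only. Mitotic cells were deeper than non-cycling cells, with a median of 11068.5 against 5756.5 UMIs and 3439.5 against 2253 genes per cell. After both were thinned to 3000 UMIs the medians were 1533 and 1481 genes. Mitochondrial genes took a median of 3.51% of UMIs in mitotic and 4.38% in non-cycling cells. Of the barcode letters, 112 occurred in more than 1 set over all cells, 18 over gated cells and 1 over mitotic cells.

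GCs divide under the drive of follicle-stimulating hormone, estradiol and growth factors of the oocyte, and stop dividing when LH turns them into luteal cells. A dividing cell first licenses and fires its replication origins under E2F factors, copies its DNA and packs it with new histones in S phase, and then builds up cyclin B with the kinase CDK1. Condensins compact the chromosomes, kinetochores attach them to the spindle under the watch of the spindle checkpoint, and the anaphase-promoting complex, with UBE2C as one of its ubiquitin-conjugating enzymes, ends mitosis by destroying securin and cyclin B. Many genes of the late programme are held off outside these phases by the DREAM complex at a short element, the cell cycle genes homology region (CHR), near their start, and are turned on through MuvB with B-MYB and FOXM1, often beside CCAAT boxes bound by NF-Y.

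The starts of 4 genes are shown to set that element beside the measurements: *Ube2c* and *Ccnb2*, both markers of the rule, *Cdk1*, a G2/M gene outside it, and *Mcm5*, a subunit of the replicative helicase. Each stretch runs 5′ to 3′ on the strand of the gene from -160 to 30 around the RefSeq start, with capitals marking the CHR letters TTTGAA, the letters CCAAT, and the E2F words TTTCCCGC, TTTGGCGC, TTTCGCGC and TTTGCCGC, each on either strand.
Ube2c: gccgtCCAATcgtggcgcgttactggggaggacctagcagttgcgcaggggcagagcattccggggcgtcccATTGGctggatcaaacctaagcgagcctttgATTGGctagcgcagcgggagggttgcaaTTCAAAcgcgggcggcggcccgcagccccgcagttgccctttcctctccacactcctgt
Ccnb2: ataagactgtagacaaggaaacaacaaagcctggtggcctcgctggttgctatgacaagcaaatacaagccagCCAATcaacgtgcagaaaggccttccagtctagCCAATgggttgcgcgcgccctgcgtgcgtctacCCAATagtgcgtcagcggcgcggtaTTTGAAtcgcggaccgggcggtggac
Cdk1: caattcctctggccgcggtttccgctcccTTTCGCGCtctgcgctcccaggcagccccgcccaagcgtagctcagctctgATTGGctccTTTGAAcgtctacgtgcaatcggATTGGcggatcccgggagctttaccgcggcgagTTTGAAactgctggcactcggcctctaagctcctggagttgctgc
Mcm5: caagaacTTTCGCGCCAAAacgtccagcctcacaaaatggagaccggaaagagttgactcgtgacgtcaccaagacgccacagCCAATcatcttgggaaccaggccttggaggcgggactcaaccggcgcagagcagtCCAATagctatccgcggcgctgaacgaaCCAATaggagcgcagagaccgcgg
These lie at chr2:164769769-164769958 on the plus strand, chr9:70421525-70421714 on the minus strand, chr10:69352883-69353072 on the minus strand and chr8:75109349-75109538 on the plus strand of GRCm38.p6. *Ube2c* held the CHR letters on the opposite strand at -29 to -24, downstream of CCAAT letters at -88 to -84 and -57 to -53. *Ccnb2* held TTTGAA at 5 to 10 after 3 CCAAT boxes, and *Cdk1* held it at -71 to -66 and at -15 to -10. *Cdk1* also carried an E2F word at -131 to -124. *Mcm5* had no CHR letters in this window and held a pair of E2F words that overlap, at -153 to -146 and at -149 to -142.

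Over 32851 RefSeq mouse promoters of 300 bases each (250 before to 50 after the start), 17.9% held TTTGAA, 37.4% held CCAAT, 2.26% held one of the E2F words and 6.95% held both of the first pair of motifs. Among the 6 markers that chose the cells, 5 had CHR letters and 5 had CCAAT, while *Birc5*, the survivin subunit of the passenger complex, had none of the 3 kinds. Counted by gene, with any of its promoters, 21 of 28 matched genes (75%) of spindle motors and cytokinesis held the CHR letters, against 14.0% of the 9926 matched genes compared below. In the list of DNA synthesis and nucleotide supply it was 3 of 27 (11.1%). E2F words were in 9 of 16 licensing genes, 8 of 27 DNA synthesis genes (29.6%) and 2 of 28 spindle genes, beside 4.83% of the compared genes. The motifs did not divide the lists cleanly. The licensing list also held the CHR letters in 5 of its 16 genes (31.2%), condensin and cohesin held them in 7 and E2F words in 6 of 14, and the list of E2F, Rb, MuvB and FoxM1 factors held each in 6 of 15. Between genes higher and lower in mitotic cells, as defined below, CHR letters were in 30.3% of 557 and 14.4% of 409 matched genes, CCAAT in 55.8% and 38.4%, and E2F words in 14.7% and 0.733%. A match is a match of letters, and binding was not measured.

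**Figure D1:**
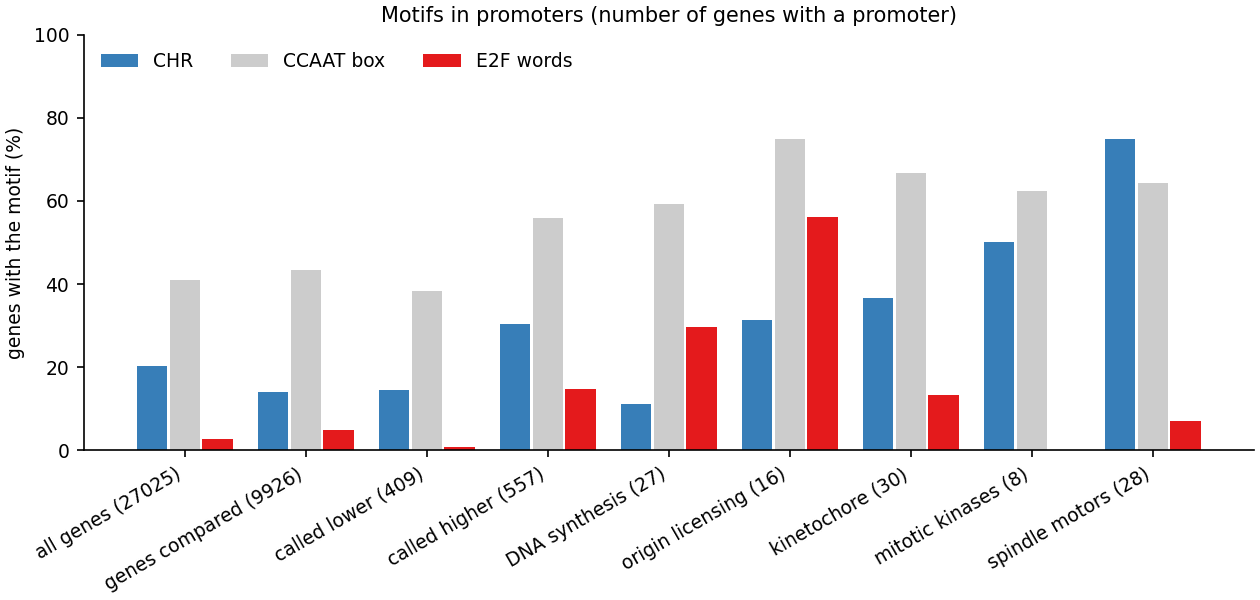
Share of genes (percent, vertical axis) with a RefSeq promoter that holds CHR letters, CCAAT letters or an E2F word, for all genes, the compared genes, genes lower or higher in mitotic GCs, and lists of cell cycle genes, with the number of genes in brackets. The bar of CHR letters is tallest in the spindle list, at 75%, and that of E2F words in the licensing list, with 9 of 16 genes.

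The 6 markers chose the cells, so their levels describe the choice and carry no finding. *Ube2c* was at 7.43, 8.19 and 5.26 UMIs per 10000 in mitotic cells of sets 1, 2 and 3. *Top2a*, which encodes topoisomerase II alpha, was at 5.66, 4.81 and 5.25. *Mki67*, the gene of the Ki-67 protein, was at 2.47, 1.71 and 1.57. All 3 were in one range across the sets, with the highest value under 2 times the lowest. *Birc5* was at 4.65, 3.08 and 3.40, *Ccnb2* at 2.97, 2.04 and 1.23 and *Cenpf* at 3.04, 1.75 and 2.01. Of the 6, *Ccnb2* alone had a highest value above 2 times its lowest. The non-cycling cells held 0 UMIs of all 6 by definition. *Inha* at 62.1, 59.5 and 31.5 in mitotic and 57.5, 57.7 and 36.0 in non-cycling cells lay far above the gate of 6.39 in both.

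Of the 2302 cells, 415 carried exactly 3 markers, 389 carried 4, 625 carried 5 and 873 carried all 6. Just inside the threshold, cells with exactly 3 markers held *Top2a* at 1.42, 1.84 and 1.74, and just outside it the 749 cells with exactly 2 markers held 0.477, 0.697 and 1.00. The summed level of 48 published G2/M genes other than the markers was graded with the number of markers. In set 1 it was 11.8 in cells with none, 19.0 with 2, 39.5 with 3 and 108 with 6, and the widest step between neighbours in sets 1 and 2, in relative terms, lay between 2 and 3 markers. The 43 published S-phase genes did not grade in that way above 3 markers, with 27.9 at 3 markers and 27.7 at 6 in set 1.

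The gate was checked against cells it removes. Cells with a UMI of *Pecam1*, an endothelial mark, but none of *Ptprc* or *Dcn* should lack inhibin and still held *Inha* at 12.8, 11.6 and 7.90 UMIs per 10000, above the gate's 6.39 in all 3 sets. Cells with a *Ptprc* UMI but none of *Pecam1* or *Dcn* held 13.2, 13.0 and 8.44. *Inha* was thus also found in cells that the gate removes. Whether some of those cells are GCs, and what their *Inha* comes from, was not tested. Marker lists of other cell types were summed in the mitotic cells and over all cells of a set. Stromal markers were at 2.53, 1.85 and 2.19 against 20.6 to 24.5, and endothelial markers at 0.207, 0.357 and 0.218 against 1.84 to 3.27, but these lists hold the gate genes *Dcn* and *Pecam1*, as the immune list holds *Ptprc*, so part of those low sums is set by the rule. Immune markers were at 0.0816, 0.0436 and 0.0736 against 0.970 to 1.44, and oocyte markers at 0.0369, 0.0394 and 0.0385 against 0.108 to 0.223. Smooth muscle markers, which the gate does not use, were at 0.892, 1.40 and 2.12 against 9.76 to 18.0. Epithelial markers were above all cells in sets 1 and 3, at 0.277, 0.300 and 0.345 against 0.195, 0.332 and 0.198, and erythroid markers were at 0.0592, 0.0408 and 0.115 against 0.266, 0.0402 and 0.409. Theca markers, which include the gate gene *Cyp17a1* and also *Cyp11a1* and *Star*, were at 32.3, 24.1 and 20.3 against 62.4, 38.2 and 28.8. Outside the gate, 1286 further cells carried 3 or more of the 6 markers, most of them (1127) with *Inha* below 2.

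Mitotic cells made up 16.7% of gated GCs. By set the share was 17.6% (16.5 to 18.8%), 13.1% (12.1 to 14.1%) and 19.1% (18.0 to 20.2%). Because a deeper cell has more chances to show 3 markers, the gate and the rule were applied again to cells thinned to 3000 UMIs, which left out 1005 gated cells, 49 of them mitotic and 741 non-cycling. On thinned counts 13243 cells passed the gate, against 12756 gated cells of 3000 UMIs or more at own depth. Some cells thus passed only once thinned, and the cells compared are not all the same. At own depth the 12756 cells gave 18.4% (17.2 to 19.7%), 13.8% (12.8 to 14.9%) and 20.3% (19.1 to 21.4%) by set. The thinned shares were 13.1% (12.1 to 14.1%), 8.50% (7.68 to 9.38%) and 12.6% (11.7 to 13.6%). Set 2 was lowest on both scales and its interval did not meet those of the other sets, whereas the order of sets 1 and 3 changed with thinning. No label says whether a set is 1 library, and a difference between sets has no replicate check.

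**Figure D2:**
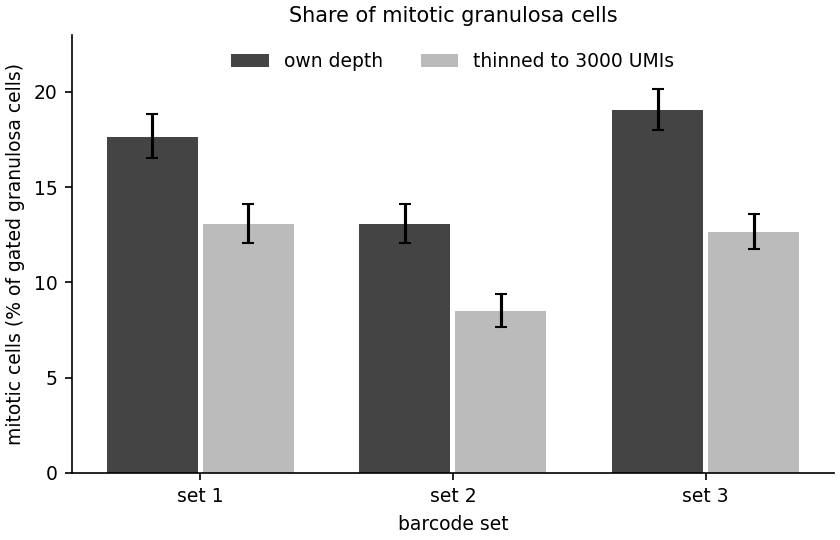
Mitotic cells as a share of gated GCs (percent, vertical axis) in barcode sets 1, 2 and 3, at the cells' own depth and after thinning to 3000 UMIs, with exact 95% intervals for counting error. Set 2 is lowest on both scales, at 13.1% and 8.50%.

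Of 12863 genes with at least 20 UMIs over the gated cells of every set, the rule's own genes left out, 723 (5.62%) were at least 1.5-fold higher in mitotic than in non-cycling cells in all 3 sets and 551 (4.28%) were at least 1.5-fold lower. These are the genes called higher and lower. The median ratio over all compared genes was 0.956, 0.966 and 0.973 by set. The cells were chosen on genes of the mitotic programme, so a high count among its members follows in part from the choice and nothing is read from it. How steep the ratio of a member is depends on the choice as well, so the ratios below are a description of these groups of cells only.

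**Figure D3:**
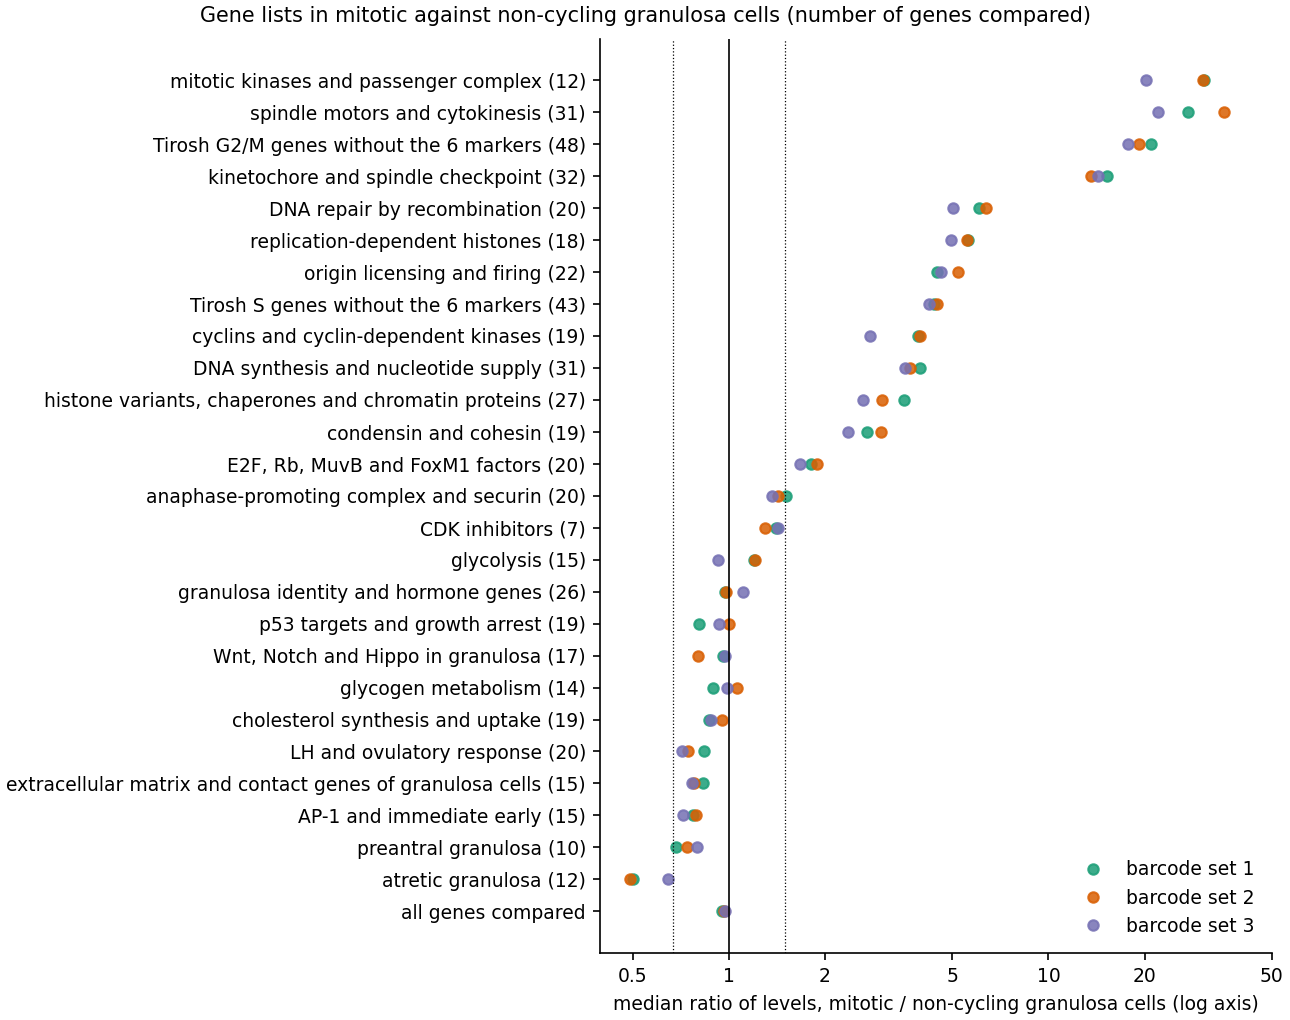
Median ratio of levels in mitotic over non-cycling GCs (log axis, horizontal) over the compared genes of each list, 1 point per barcode set, with the number of genes in brackets and dotted lines at 1.5-fold. Mitotic kinases (30.6, 30.4 and 20.3 by set) and spindle genes (27.3, 35.4 and 22) lie at one end and genes of atretic GCs (0.501, 0.491 and 0.647) at the other, with all compared genes near 1.

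All 22 genes of origin licensing and firing were called higher, beside 5.62% of all compared genes, with a median ratio of 4.76. *Mcm10*, which helps the helicase to open the origin, was at 0.181, 0.155 and 0.233 in mitotic and 0.00862, 0.0133 and 0.0120 in non-cycling cells, a ratio of 21.0, 11.7 and 19.5. *Cdc45*, a subunit of the active helicase, was 13.8, 12.2 and 15 times as high. The subunits of the MCM ring were much less steep, with ratios of 3.12, 3.30 and 3.17 for *Mcm4* and of 2.70, 3.09 and 3.87 for *Mcm7*. Non-cycling cells held *Mcm7* at 0.556, 0.319 and 0.515 UMIs per 10000.

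In DNA synthesis and nucleotide supply 28 of 31 genes were called higher, beside 5.62% of all compared genes, with a median of 3.62. *Rrm2*, the regulated subunit of ribonucleotide reductase, was at 1.77, 1.13 and 1.68 in mitotic and 0.0809, 0.0647 and 0.229 in non-cycling cells, a ratio of 21.9 (18.2 to 26.5), 17.4 (14.4 to 21.4) and 7.33 (6.60 to 8.16). Thymidine kinase *Tk1* was 31.4, 13.4 and 16.1 times as high and *Uhrf1*, which carries DNA methylation over to the new strand, 14.0, 11 and 9.11 times. *Pcna*, the sliding clamp often stained as a marker of proliferation, differed far less, at 1.39, 1.99 and 1.11 against 0.424, 0.896 and 0.378, a ratio of 3.29 (2.99 to 3.62), 2.22 (2.06 to 2.38) and 2.93 (2.67 to 3.21). The 3 genes not called were *Rfc1*, *Slbp* and *Rnaseh2a*, the last with ratios of 1.77, 1.38 and 0.853.

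Replication-dependent histones had a median ratio of 5.38, with 13 of 18 called higher, beside 5.62% of all compared genes. The linker histone gene *Hist1h1b* was at 3.30, 3.03 and 3.33 against 0.196, 0.195 and 0.194, a ratio of 16.9, 15.5 and 17.2. *Hist1h3c* was 54.4, 41.7 and 28.7 times as high. Copies of these genes are nearly identical and most of their messages lack a poly(A) tail, so single members are uncertain. Among 27 histone variants, chaperones and chromatin proteins 23 were called higher. *H2afz*, the H2A.Z variant, was at 43.8, 51.1 and 39.6 against 9.33, 10.9 and 11.2, and *Hmgb2*, a chromatin protein of dividing cells, was at 10.5, 11.6 and 5.95 against 1.18, 0.957 and 0.753.

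The ratios of cyclins and their kinases ranged widely, in cells chosen partly on the cyclin gene *Ccnb2*. *Ccnb1*, the cyclin of mitotic entry, was at 1.87, 1.41 and 1.71 in mitotic and 0.0232, 0.0194 and 0.0321 in non-cycling cells, a ratio of 80.6 (57.7 to 116), 72.8 (52.0 to 105) and 53.2 (41.1 to 70.2). *Ccna2*, the cyclin of S phase and G2, was 73.6, 50.7 and 53.3 times as high. Their kinase *Cdk1* was at 3.25, 3.26 and 2.58 against 0.171, 0.113 and 0.144. The interval of *Ccnb1* in each set overlapped those of the other sets.

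The ratios of the G1 cyclins were far smaller. *Ccne1*, which drives entry into S phase, was at 0.153, 0.110 and 0.204 against 0.0391, 0.0276 and 0.0735, a ratio of 3.92, 3.97 and 2.77. *Ccnd1* gave few UMIs, at 0.0291, 0.0366 and 0.0352 against 0.0411, 0.0420 and 0.0501, and each of its intervals held 1. *Ccnd2*, the D-type cyclin that GCs need to divide, picked here after its values were seen, was at 5.62, 4.23 and 2.19 against 2.78, 2.82 and 1.45. *Cdk4* was at 4.10, 3.33 and 4.96 against 3.26, 2.62 and 3.85 and was not called.

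The median ratio of inhibitors of the cyclin-dependent kinases was 1.30. Of 7 compared, 2 were called higher, beside 5.62% of all genes: *Cdkn2c* (ratios of 3.37, 5.26 and 3.03) and *Cdkn3* (15.3, 11.8 and 18.3), the latter a phosphatase that acts on CDK1. *Cdkn1a*, the p53 target p21, was at 0.277, 1.39 and 0.954 against 0.198, 1.30 and 0.939, and *Cdkn1b*, the p27 gene linked to luteinising GCs, at 1.21, 0.791 and 0.692 against 1.11, 0.608 and 0.486. None of the 7 was called lower. The 19 targets of p53 and genes of growth arrest had a median of 0.945 beside 0.961 for all genes. Of the 19, *Gadd45a* alone was called lower, at ratios of 0.639, 0.649 and 0.558, beside 4.28% of all compared genes. That call did not hold under 6 of the 11 other settings.

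Of 20 E2F, Rb, MuvB and FoxM1 genes 11 were called higher, beside 5.62% of all compared genes, with a median of 1.81. *Foxm1* was at 0.314, 0.191 and 0.233 against 0.0119, 0.0122 and 0.0125, a ratio of 26.3, 15.7 and 18.6, and the repressors *E2f7* and *E2f8* were 13.0 to 64.0 times as high. *Rbl2*, *Tfdp2*, *E2f4* and *Lin52*, parts of the complex that holds the genes off in resting cells, had ratios of 0.922 to 1.2.

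Of kinetochore and spindle checkpoint genes 32 of 32 were called higher, beside 5.62% of all compared genes, with a median ratio of 15.4. *Knl1*, the scaffold that recruits the checkpoint to the kinetochore, was at 1.01, 0.713 and 0.575 against 0.0106, 0.00940 and 0.0136, a ratio of 95.6, 75.9 and 42.3. The checkpoint kinase *Bub1* was 71.4, 63.7 and 62.7 times as high. Its partner *Bub3*, which also works outside mitosis, was at 3.19, 2.24 and 3.73 against 1.27, 0.806 and 1.83, a ratio of only 2.51, 2.78 and 2.03. *Cenpm* was uneven, at 0.889, 3.61 and 1.37 against 0.0689, 1.51 and 0.50, so its ratio of 12.9 in set 1 fell to 2.40 in set 2 through a higher level in non-cycling cells.

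All 12 mitotic kinases and passenger complex genes were called higher, beside 5.62% of all compared genes. The median of their middle ratios was 29.1, the highest of any list. *Aurkb*, the kinase that corrects spindle attachments, was at 1.27, 0.674 and 0.630 against 0.0199, 0.0194 and 0.0125, a ratio of 63.8 (44.4 to 95), 34.8 (24.7 to 50.6) and 50.3 (33.3 to 79.9). *Plk1*, the Polo kinase of mitotic entry and exit, was 60.5, 71.9 and 46.5 times as high. *Cdca8*, which encodes borealin, was at 2.88, 2.07 and 3.0 in mitotic cells. *Bora*, *Mastl* and *Plk4* were the least steep, with ratios between 2.90 and 15.2.

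Spindle motors and cytokinesis gave 30 of 31 genes called higher, beside 5.62% of all compared genes, and a median of 26.7. *Hmmr*, a spindle protein that also binds hyaluronan, the sugar of the cumulus matrix, was at 1.25, 0.831 and 0.856 against 0.0133, 0.0155 and 0.0103. Its ratio was 94.0 (60.6 to 155), 53.7 (36.8 to 81.5) and 82.8 (52.7 to 138). Tubulins, which every cell uses, were at high levels in both kinds of cell: *Tubb5* was at 24.7, 25.2 and 38.7 against 7.93, 7.85 and 17.2. *Tuba1c* was the gene not called, with ratios of 4.63, 3.08 and 1.31, since non-cycling cells of set 3 held 2.69 where those of set 1 held 0.183.

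Of 20 genes in the list of the anaphase-promoting complex and securin, 7 were called higher, beside 5.62% of all compared genes. The median was 1.43. *Cdc20*, its mitotic activator, was at 3.07, 1.94 and 2.73 against 0.0908, 0.0857 and 0.205, and securin, *Pttg1*, at 3.45, 2.92 and 2.14 against 0.127, 0.170 and 0.186. Separase, *Espl1*, the protease that securin holds, was 55.4, 66.2 and 36.7 times as high, with 0.220, 0.146 and 0.20 in mitotic cells. The 4 smallest middle ratios were those of the core subunits *Anapc2*, *Anapc4*, *Anapc10* and *Anapc16*, whose ratios in single sets ran from 0.844 to 1.06, while 16 of the 20 genes were above 1 in every set, as were 25.8% of all compared genes. In condensin and cohesin 12 of 19 genes were called higher. *Smc2* of condensin had ratios of 13.1, 16.3 and 9.45, and *Esco2*, which acetylates cohesin in S phase, of 70.5, 47.5 and 80.2, while *Stag2*, *Nipbl* and *Wapl*, the 3 with the smallest middle ratios of the list, had ratios between 0.861 and 1.13.

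Genes of repair by recombination were called higher in 18 of 20 cases, beside 5.62% of all compared genes, with a median of 6.04. *Brca1*, which acts early in that repair, was 10.0, 12.7 and 13.8 times as high. The lists of 43 S and 48 G2/M genes widely used to score the cell cycle had 39 and 48 genes called higher, with medians of 4.33 and 20.4. They share genes with the lists above.

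Inside the mitotic cells, S-phase and G2/M transcripts were not carried in a fixed proportion. The S genes' share of the UMIs of both published lists had a median of 19.9%, 17.6% and 27.3% by set, with quartiles of 13.3 to 32.7%, 12.8 to 27.2% and 20.7 to 36.9%. Single cells reached 75.4%, 72.8% and 78.6%. Across the 750, 567 and 985 cells of each set the S and G2/M sums per 10000 UMIs had a Spearman rho of 0.157, 0.186 and 0.112, a weak relation of sparse counts that share a depth and from which nothing is read. The share itself had a rho of 0.195, 0.215 and 0.02 with the cell's UMIs.

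**Figure D4:**
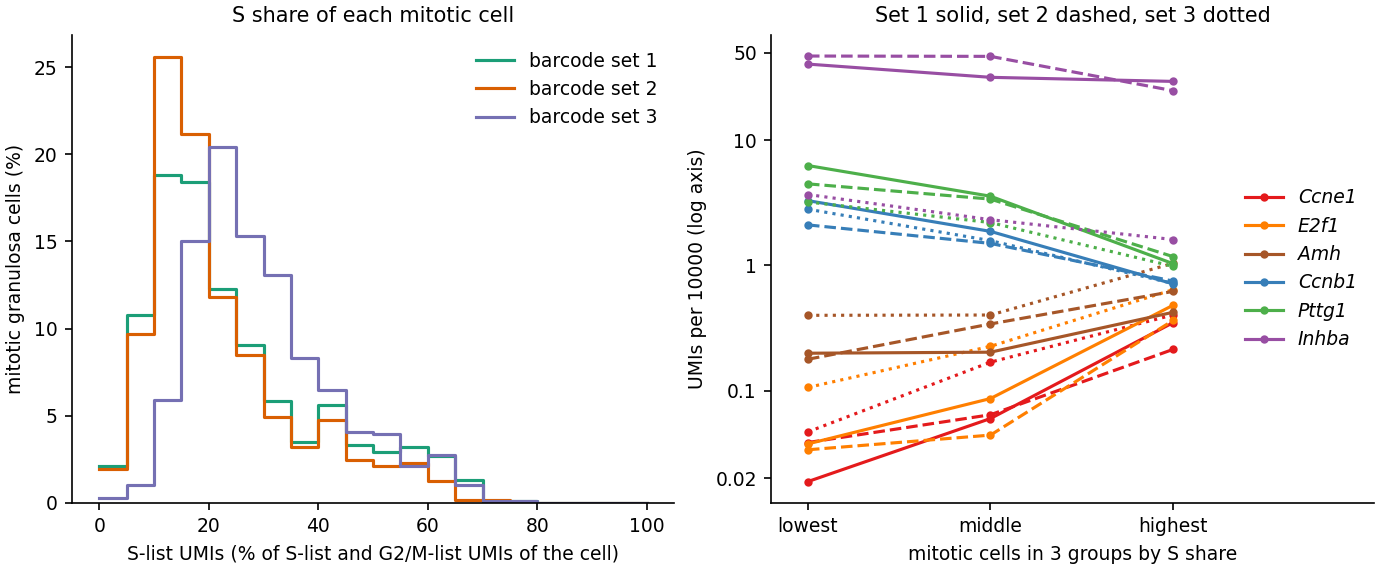
Left, mitotic cells (percent, vertical axis) by the share of S genes among their S and G2/M UMIs (percent, horizontal axis), 1 line per barcode set. Right, levels (UMIs per 10000, log axis) of genes outside both published lists in 3 groups of mitotic cells by that share, where *Ccne1*, *E2f1* and *Amh* are highest and *Ccnb1*, *Pttg1* and *Inhba* lowest in the group of highest share in all 3 sets.

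The mitotic cells of each set were then put in order of that share and cut into 3 groups of like size, of 250 cells in set 1, 189 in set 2 and 328 or 329 in set 3. Genes that are in neither published list were read off in each group, picked after their values were seen and with no test, since the same cells were used for the order. *Ccne1* was at 0.0188, 0.0598 and 0.349 in the groups of low, middle and high S share of set 1. In set 2 it was at 0.0385, 0.0641 and 0.213, and in set 3 at 0.0468, 0.169 and 0.402. *E2f1*, the activator of S-phase genes, was at 0.480, 0.363 and 0.640 in the groups with the highest S share against 0.0375, 0.0337 and 0.106 in the lowest. *Tk1* moved alike, from 0.101, 0.0433 and 0.143 to 0.578, 0.332 and 0.538.

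*Ccnb1* and *Pttg1*, 2 genes of G2 and mitosis, ran the opposite way. *Ccnb1* went from 3.29 to 1.87 and 0.712 in set 1, and *Pttg1* from 6.28 to 3.57 and 1.03, with the same order in sets 2 and 3. *Hist1h1b* was at 1.58, 1.89 and 2.07 in the lowest groups and 5.19, 4.16 and 5.01 in the highest. Of the rule's markers, *Ube2c* went from 12.8, 12.8 and 8.82 to 2.70, 3.63 and 2.09, while *Top2a* stayed between 4.53 and 6.34 in all 9 groups. Cells rich in S-phase transcripts and cells rich in these 2 were both among the ones the rule selects.

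Of 3 genes picked from the list of GC genes after their values were seen, *Amh* and *Inhba* differed along this order and *Fshr* differed little in sets 1 and 3. *Amh*, the anti-Mullerian hormone of small growing follicles, was at 0.199, 0.178 and 0.399 in the groups with the lowest S share and 0.422, 0.620 and 1.04 in those with the highest. *Inhba*, the activin and inhibin beta A subunit, went the other way, from 40.6, 47.1 and 3.68 to 29.5, 24.9 and 1.61. *Fshr*, the receptor of follicle-stimulating hormone, was at 0.938, 0.702 and 0.266 in the lowest and 0.926, 0.584 and 0.245 in the highest groups.

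Of 26 genes of GC identity and hormones 3 were called higher and 4 lower, beside 5.62% and 4.28% of all compared genes, with a median of 0.985. *Inhbb*, the inhibin and activin beta B subunit, was called higher, at 14.7, 9.11 and 0.860 against 5.67, 4.53 and 0.499, a ratio of 2.60, 2.01 and 1.72. *Amh* was at 0.282, 0.393 and 0.607 against 0.180, 0.183 and 0.324, and *Igf1*, the growth factor that works with follicle-stimulating hormone, at 2.19, 1.84 and 1.51 against 1.03, 1.11 and 0.825. The call of *Amh* did not hold after thinning (middle ratio 1.79) or without the cells above 2 times the median UMIs (1.23), and that of *Igf1* did not hold without those cells (1.68).

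**Figure D5:**
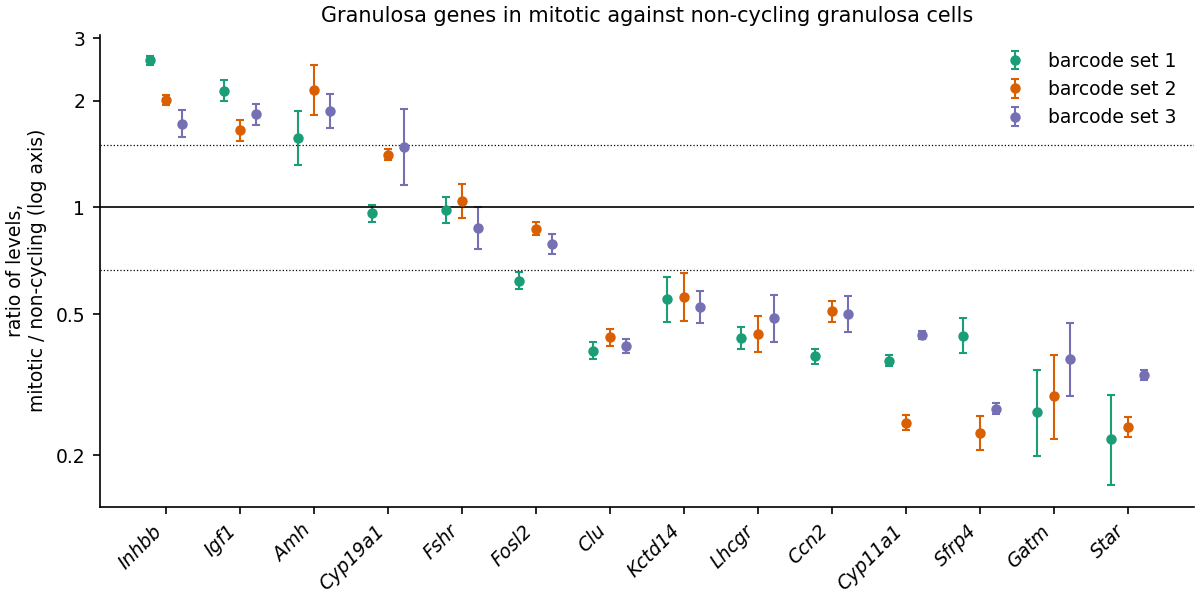
Ratio of levels in mitotic over non-cycling GCs (log axis, vertical) of genes of the GC state, 1 point per barcode set with its exact 95% interval for counting error, and dotted lines at 1.5-fold. *Inhbb*, *Igf1* and *Amh* lie above the dotted lines in all 3 sets. *Clu*, *Kctd14*, *Lhcgr*, *Ccn2*, *Cyp11a1*, *Sfrp4*, *Gatm* and *Star* lie below them in all 3 sets, while *Fshr* stays between them.

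*Fshr* itself was at 0.918, 0.636 and 0.289 in mitotic and 0.933, 0.609 and 0.330 in non-cycling cells, with ratios of 0.984 (0.902 to 1.07), 1.04 (0.933 to 1.17) and 0.876 (0.766 to 1.00). *Cyp19a1*, the aromatase that makes estradiol, was at 2.13, 6.39 and 0.107 against 2.21, 4.53 and 0.0724. The intervals of its ratio in set 1, 0.962 (0.909 to 1.02), and in set 2, 1.41 (1.36 to 1.46), did not overlap. The level of *Cyp19a1* differed far more between sets than between mitotic and non-cycling cells of a set. *Creb1*, a transcription factor of the cAMP pathway, had ratios of 1.01, 0.934 and 1.05.

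*Cyp11a1*, *Star* and *Lhcgr* were called lower, whereas *Hsd17b1*, another steroid enzyme of GCs, had ratios of 1.07, 1.18 and 1.65. *Cyp11a1*, the side-chain cleavage enzyme that makes pregnenolone, was at 4.52, 2.32 and 6.50 against 12.2, 9.38 and 14.9, a ratio of 0.370 (0.357 to 0.383), 0.247 (0.235 to 0.260) and 0.436 (0.425 to 0.447). *Star*, which brings cholesterol to that enzyme, was at 0.0604, 1.40 and 3.67 against 0.271, 5.82 and 10.9. The LH receptor gene *Lhcgr* was at 1.06, 0.502 and 0.191 against 2.48, 1.14 and 0.391, a ratio of 0.428, 0.440 and 0.487. Cells with a *Pecam1* UMI and none of *Ptprc* or *Dcn* held *Lhcgr* at 1.04, 0.531 and 0.131. Those cells held *Star* at 0.453, 1.76 and 2.29. In sets 1 and 2 the mitotic level of *Lhcgr* was near that of these cells and the mitotic level of *Star* was below it. In set 3 both genes were higher in mitotic cells. *Cyp11a1* and *Lhcgr* were called lower under all 11 other settings tried, and *Star* under 10 of them, the exception being a gate of *Inha* at 3. Theca cells express all 3 as well, and theca markers summed to 32.3, 24.1 and 20.3 in mitotic and 52.2, 42.6 and 40.8 in non-cycling cells. That list holds *Star* and *Cyp11a1* themselves, and the part of theca RNA in the difference was not tested. *Cyp17a1*, the theca gene of the gate, was at 0.377, 0.259 and 0.0761 against 0.567, 0.333 and 0.158.

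The list of the LH and ovulatory response had 5 of 20 compared genes called lower, beside 4.28% of all, and none higher, with a median of 0.803. *Star* and *Lhcgr* were 2 of the 5. Of the others, *Sfrp4*, a secreted Wnt inhibitor of luteinising GCs, had ratios of 0.435, 0.231 and 0.271 and *Edn2*, the endothelin made around ovulation, 0.537, 0.356 and 0.501. *Runx2*, a transcription factor that LH induces, named only to complete the 5, had 0.521, 0.302 and 0.626. The call of *Edn2* did not hold after thinning and that of *Sfrp4* did not hold when 2 markers were enough. In all, 10 of the 20 genes had a ratio under 1 in every set and 1 a ratio over 1, beside 35.2% and 25.8% of all compared genes. The largest middle ratios were those of *Tnfaip6* and *Rgs2*. *Tnfaip6*, which crosslinks the cumulus matrix, was at 0.0156, 8.19 and 2.15 in mitotic and 0.00464, 6.77 and 2.08 in non-cycling cells, and its set 1 ratio of 3.37 (1.27 to 9.87) rests on few UMIs. *Rgs2* was at 4.13, 25.7 and 10.5 against 3.71, 23.3 and 10.9. In set 2 the ratios were 1.21 (1.17 to 1.25) for *Tnfaip6* and 1.11 (1.09 to 1.13) for *Rgs2*, under the 1.5-fold rule.

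The ratios of immediate early genes were below 1 without reaching the 1.5-fold rule. In the AP-1 list 14 of 15 compared genes had a ratio under 1 in all 3 sets, as 35.2% of all compared genes had, and none was called. The median was 0.731. *Fosl2*, an AP-1 subunit, was at 1.93, 4.15 and 1.2 in mitotic and 3.11, 4.77 and 1.51 in non-cycling cells, a ratio of 0.621 (0.588 to 0.657), 0.870 (0.834 to 0.907) and 0.791 (0.742 to 0.843). *Junb* had ratios of 0.604, 0.759 and 0.631 and *Atf3* of 0.765, 0.556 and 0.507. *Btg2*, an antiproliferative gene of the p53 list, had ratios of 0.799, 0.737 and 0.650.

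Genes of atretic GCs, the cells of dying follicles, had the lowest median ratio of all lists, 0.558. Of the 12 genes 8 were called lower, beside 4.28% of all compared genes, and none higher. Markers of some other cell types were also lower in mitotic than in non-cycling cells. Summed smooth muscle markers were at 0.892, 1.40 and 2.12 against 1.63, 2.88 and 2.56, immune markers at 0.0816, 0.0436 and 0.0736 against 0.129, 0.111 and 0.190, and theca markers at 32.3, 24.1 and 20.3 against 52.2, 42.6 and 40.8. Stromal markers were at 2.53, 1.85 and 2.19 against 2.79, 2.18 and 2.33, and endothelial markers at 0.207, 0.357 and 0.218 against 0.205, 0.363 and 0.245. The part of such cells' RNA in the ratios of the atretic list was not tested. *Clu*, which encodes clusterin, was at 1.88, 2.08 and 2.07 against 4.75, 4.83 and 5.08, a ratio of 0.395, 0.431 and 0.407. *Igfbp5*, a binding protein of IGF1, had ratios of 0.298, 0.288 and 0.552, *Ghr* of 0.441, 0.302 and 0.520 and *Pik3ip1*, an inhibitor of PI3 kinase, of 0.455, 0.433 and 0.444. *Nap1l5*, with ratios of 1.68, 1.30 and 1.40, was among 3 of the 12 genes above 1 in all 3 sets, none of them called. Summed over the list, levels were 23.4, 31.8 and 10.8 in mitotic and 23.6, 32.9 and 15.9 in non-cycling cells.

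Of 10 compared genes of preantral GCs 1 was called higher, *Amh*, and 4 lower, beside 5.62% and 4.28% of all, with a median of 0.728. *Amh*, *Gatm* and *Kctd14* are also on the identity list and *Igfbp5* on the atretic one. *Gatm*, an enzyme of creatine synthesis, had ratios of 0.265, 0.295 and 0.374, *Kctd14* of 0.551, 0.560 and 0.525, and *Kitl*, the ligand through which GCs reach the oocyte, of 0.628, 0.562 and 0.593. The call of *Kitl* did not hold after thinning. The fourth of the identity genes called lower, *Nr0b1*, a repressor of steroidogenic genes, had ratios of 0.609, 0.229 and 0.554 and lost its call without the cells above 2 times the median UMIs (middle ratio 0.873). Among 17 Wnt, Notch and Hippo genes *Wnt4* (ratios of 0.641, 0.388 and 0.513) and the YAP target *Ccn2* (0.38, 0.509 and 0.501) were called lower, and of 15 matrix and contact genes *Itga6*, the alpha-6 integrin of the basal lamina, was (ratios of 0.474, 0.515 and 0.462). The medians of these lists were 0.927 and 0.780.

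Lists of metabolic genes are small, and with 5.62% of all compared genes called higher and 4.28% lower, about 1 call or none in each is near the background. None of 15 glycolysis genes was called, with a median of 1.2, and *Ldha*, lactate dehydrogenase A, had ratios of 1.81, 1.44 and 1.12. *Tpi1* had ratios of 1.55, 1.56 and 1.14 and *Pgk1* of 1.5, 1.42 and 0.815, so sets 1 and 2 lay above set 3. None of 14 glycogen genes was called, with a median of 0.904. Of 19 cholesterol genes *Hsd17b7* was called lower and the median was 0.883.

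The share of mitotic cells among GCs with and without a given transcript was taken for 6 genes, on cells thinned to 3000 UMIs so that depth is equal. For the shares at equal depth the gate, the rule and the UMI were all read on the thinned counts. With an *Inhbb* UMI 20.2%, 12% and 17.1% of gated GCs were mitotic, and without one 8.31%, 5.43% and 12.2%. With an *Lhcgr* UMI the shares were 9.81%, 5.87% and 8.77%, against 14.0%, 9.01% and 13.0% without. At the cells' own depth the *Lhcgr* shares were 17.8%, 13.6% and 19.1% against 17.6%, 12.9% and 19.1%, so the gap for *Lhcgr* was seen at equal depth alone. With a *Fosl2* UMI they were 10.2%, 8.11% and 11.7% against 15.8%, 9.33% and 13.1% at equal depth, and at own depth 18.1%, 13.6% and 22.4% against 16.7%, 9.92% and 15.2%. With an *Fshr* UMI the shares were 13.2%, 8.61% and 12% and without one 13.0%, 8.48% and 12.7%, at equal depth. With an *Amh* UMI they were 15%, 12.1% and 19.1% against 13.0%, 8.34% and 12%. With a *Cyp19a1* UMI they were 15.8%, 10.2% and 24.0% against 12%, 6.50% and 12.4%. These were higher with than without in each set, although the level ratio of *Cyp19a1* in set 1 was 0.962. The 24.0% of set 3 was 23 of 96 cells (15.8 to 33.7%). At equal depth the intervals with and without a UMI overlapped for *Fshr* in all 3 sets and for *Amh* in sets 1 and 2. They also overlapped for *Fosl2* in sets 2 and 3 and for *Lhcgr* in set 3.

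UMIs of these genes were also found in cells that the gate removes, and whether a UMI reflects expression in its cell was not tested. At the same depth *Lhcgr* was seen in 23.5%, 16.4% and 7.53% of gated GCs and in 9.38%, 6.03% and 1.87% of cells with a *Pecam1* UMI and none of *Ptprc* or *Dcn*, and *Inhbb* in 41.7%, 48.5% and 9.35% against 12.8%, 12.9% and 4.80%. For *Fshr* the figures were 23.7%, 17.6% and 8.68% against 4.20%, 4.36% and 1.87%. For *Fosl2* they were 49.4%, 69.0% and 32.2% against 29.9%, 45.1% and 19.7%. All 4 genes were seen more often in gated GCs than in those cells in each set.

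Between the sets, *Spp1*, which encodes osteopontin, had the widest spread of ratios among genes at 0.5 or more in some mitotic group. It was at 0.0112, 0.553 and 6.69 in mitotic and 0.0769, 0.0509 and 2.77 in non-cycling cells, and so lower in mitotic cells of set 1 and higher in those of sets 2 and 3. *Tmem37* was at 0.0469, 0.0774 and 0.941 against 0.0557, 0.0464 and 2.08. *Lmnb1*, the lamin B1 gene, had ratios of 5.68, 1.18 and 3.07, since non-cycling cells of set 2 held it at 2.80 where those of sets 1 and 3 held 0.379 and 0.593. *Kif2c*, a kinesin that takes microtubules apart at kinetochores, had ratios of 7.88, 40.2 and 55.8, and *Tpx2*, which brings Aurora A to the spindle, of 36.5, 41.2 and 11.6.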

How the data were processed

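Single-cell RNA-seq libraries of mouse ovary, 1 each at 0, 1 and 6 h after hCG, were made on the 10x Genomics platform. The study's methods credit that work to Yingzi Gene. The submitters' processing notes name Cell Ranger, Seurat and mm10, and their versions, cell filters and annotation are not given in the sources used here. The deposited table of 31776 cells and 24958 genes holds the natural log of 1 plus UMIs per 10000 UMIs of the cell, by the authors. Those values were turned back into UMIs, and 100% were whole within 0.01. Cells held 500 to 133658 UMIs, and the 3 sets 81367055, 72906577 and 85756955. No column maps a barcode ending to a library.

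The authors' study does not define these cells by this rule, so it was applied as given. Members and gene lists were chosen with earlier results of these data known. UMIs were summed over the mitotic and non-cycling cells of each set. The mitotic groups held 8946305, 7108082 and 12222953 UMIs and the non-cycling groups 15087733, 18086471 and 18377188. Levels carry exact Poisson intervals, ratios exact conditional intervals and shares exact Clopper-Pearson intervals, at 95%. A gene was compared with 20 UMIs or more over the gated cells of every set and called at 1.5-fold or more in the same direction in all 3. A group at 0 was set to 3 UMIs. The value given for a list is the median over its genes of the middle of the 3 ratios. No count model, clustering or doublet caller was run and no doublet was removed. A doublet of a pair of GCs cannot be told from a deep cell, so cells above 2 times the median UMIs were left out as an alternative. The calculation was tested on simulated data.

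The rule for naming took the genes that chose the cells, on each list up to 6 genes with the largest and 4 with the smallest middle ratio, all members of lists of at most 12, *Fosl2*, *Fshr*, *Cyp11a1*, *Cyp19a1*, *Mki67*, *Pcna*, *Ccnd1*, *Ccne1* and *Creb1*, the 15 most extreme genes on no list in each direction, and the 10 genes at 0.5 or more whose ratio differed most between sets. Others are said to be picked after their values were seen, and the text names only part of the genes the rule takes. Promoters and their coordinates are RefSeq's on GRCm38.p6, matched by symbol, with no match for the replication-dependent histones. Python 3.11.15, numpy 2.4.6, scipy 1.17.1, pandas 2.3.3 and matplotlib 3.10.9 were used.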

Additional observations from a re-analysis of the deposited data

Results flagged for a closer look

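*Spp1* and *Tmem37* went in opposite directions in different sets. For *Spp1* the ratio of mitotic to non-cycling cells was 0.145 (0.0679 to 0.277), 10.9 (8.64 to 13.8) and 2.41 (2.33 to 2.50) in sets 1, 2 and 3. For *Tmem37* it was 1.67 (1.16 to 2.37) in set 2 and 0.452 (0.423 to 0.483) in set 3. The intervals cover counting error only, no label ties a set to a library, and the difference between sets was not tested. Both genes were far more abundant in set 3 than in the others, *Spp1* at 2.77 and *Tmem37* at 2.08 UMIs per 10000 in its non-cycling cells.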

How the results depend on the processing

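With 2 markers enough, mitotic cells made up 22.2% of gated GCs (23.4%, 17.9% and 24.7% by set), and with 4 needed 13.7% (14.8%, 10.9% and 15.2%). With *Inha* at 3 or more the share was 17.9%, and 19.4% in set 1. Thinning gave 11.5% (13.1%, 8.50% and 12.6%), and leaving out cells above 2 times the median UMIs gave 11.8% (12.9%, 8.88% and 13.4%). Set 2 was lowest under each of these settings. The count of genes called lower was 551, and 355 with 2 markers, 317 with the higher *Inha* gate and 301 at a minimum of 100 UMIs. Leaving out 1 set gave 845 to 952 genes called higher and 792 to 1123 called lower, the widest without set 3, where fewer sets have to pass. After thinning 582 genes were called higher and 471 lower, of which 508 and 236 were among the 723 and 551. No gene was called in the other direction under any of the 11 settings.

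The median of the S genes, 4.33, became 3.86 with 2 markers, 4.15 with the higher *Inha* gate, 4.23 after thinning, 4.62 without the cells of high UMI counts, 4.22 on totals without the 50 most abundant genes and 3.51 against all gated cells under 3 markers. That of the G2/M genes, 20.4, became 17.2, 22.1 with 4 markers, 21.2 with the higher gate, 24.7 after thinning, 21.1 on totals without cell cycle genes and 17.7 against cells under 3 markers. The identity genes' 0.985 became 0.969 with 2 markers and 0.956 without the 50 genes, and the LH list's 0.803 became 0.869 with the higher gate and 0.838 without cells of high UMI counts.

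The genes that the rule for naming takes kept their call, or the lack of one, in 3033 of the repeats. They lost the call in 75 and gained it in 12. In another 4, all after thinning and all at a few UMIs, a called gene had its middle ratio on the other side of 1. These were *Gpr37* at 1.07, *Mmel1* at 2.01, *Shc4* at 1.34 and *Rell2* at 2.69. A gene called under neither setting whose ratio crossed 1 counts among the 3033. The mitotic share with over that without a UMI was below 1 after thinning and above 1 at own depth for *Fosl2* in all 3 sets (0.646, 0.870 and 0.890 against 1.08, 1.37 and 1.48), for *Lhcgr* in sets 1 and 2 (0.699 and 0.651 against 1.02 and 1.06) and for *Fshr* in set 3 (0.946 against 1.5). After thinning, the intervals with and without a UMI stood apart for *Fosl2* in set 1 and for *Lhcgr* in sets 1 and 2. They overlapped for *Fosl2* in sets 2 and 3 and for *Fshr* in set 3. At own depth the intervals overlapped for *Fosl2* in set 1 and for *Lhcgr* in sets 1 and 2. The cause of these changes was not tested. The comparison of mitotic with non-cycling cells was made within each barcode set, and so is paired by set. No paired test was run, since the cells had been chosen by their own transcripts. No barcode ending is tied to a time point, so time points were not compared.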

Other observations

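Genes on none of the lists held further parts of the division machinery. *Pclaf*, the PCNA-associated factor, was at 3.94, 3.30 and 2.64 UMIs per 10000 in mitotic and 0.109, 0.114 and 0.109 in non-cycling cells. *Depdc1a* was 90, 61.1 and 62.7 times as high, *Shcbp1* 36.1, 39.2 and 31.3 times, and *Mxd3*, a partner of MAX, 77.4, 49.4 and 32.3 times. *Neil3*, a DNA glycosylase, was at 0.446, 0.281 and 0.166 against 0.00597, 0.00276 and 0.00544, and *Lockd*, a long non-coding RNA next to *Cdkn1b*, at 0.770, 0.546 and 0.265 against 0.0212, 0.0199 and 0.00762. Several of the 15 rest on a handful of UMIs in non-cycling cells, and their upper bounds are wide, as for *Iqgap3* in set 3 at 66.2 (22.1 to 325).

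At the low end the 15 genes were all at 0.717 UMIs per 10000 or less in non-cycling cells. *Lrp11* was the best counted of them, at 0.217, 0.104 and 0.0147 against 0.717, 0.363 and 0.0522, a ratio of 0.302 (0.258 to 0.353), 0.287 (0.222 to 0.365) and 0.282 (0.160 to 0.470). *Ssu2* had ratios of 0.118, 0.125 and 0.219 and *Tgfbr3l*, a co-receptor of inhibin B in the pituitary, of 0.247, 0.345 and 0.306.

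The 1286 cells with 3 or more markers outside the gate are described by the gate genes they failed, and their identities were not tested. Of these, 513 missed the gate by *Inha* alone, 77 by a *Pecam1* UMI alone, 37 by *Cyp17a1* alone, 29 by *Dcn* alone and 8 by *Ptprc* alone. Summed over the 1286 cells *Cyp17a1* was at 7.35, 4.47 and 1.22 UMIs per 10000 in sets 1, 2 and 3. Over all cells of each set it was at 8.77, 4.50 and 1.24. In the 1286 cells the collagen gene *Col1a2* was at 9.12, 7.81 and 5.72, and *Inha* at 8.72, 8.16 and 5.10.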
